A study of Arabidopsis thaliana with 24 samples.

Results

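A set of 58 genes had higher transcript levels in *Arabidopsis* shoots both after sucrose and after light, each averaged over both genotypes and over the other treatment. The genes were chosen by their measured responses. Among the 13356 genes that have a probe set of their own on the array, 7846 had a mean intensity of at least 100 over the 24 arrays. Of these, 262 were at least 0.7 higher on the log2 scale with sucrose than without (12 arrays against 12), 372 were at least 1 higher in light than in darkness (12 against 12), and 63 met both limits. The rule left out 5 of the 63 by name (*APL3*, AT1G66080, AT5G59050, *HYH* and *UGT78D1*), and 58 remained.

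The arrays were ATH1 arrays hybridized with shoot RNA of 3-week-old plants grown in hydroponic culture. Before the treatments, all plants spent 24 h without sucrose and without light. They then received, for 2 h, 1% sucrose and light of 70 µE (+C+L), light alone (-C+L), sucrose alone (+C-L) or neither (-C-L). The mutant *sdg8-5*, first called *cli186*, arose by fast-neutron mutagenesis and lacks the whole of *SDG8* (AT1G77300), with its promoter, and part of the neighbouring gene AT1G77310. *SDG8* encodes a methyltransferase for lysine 36 of histone H3. WT is the unmutagenized line from which the mutant was made, so both genotypes carry the pASN1-HPT2 transgene of that screen, and WT is not a plant without a transgene. A single deletion line stands for the loss of *SDG8*. Each of the 8 conditions has 3 arrays, from 3 sets of biological replicates.

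Sugars act in plants as fuel and as signals. Glucose and sucrose are sensed through hexokinase and through the opposed kinases TOR and SnRK1, which set growth and protein synthesis against energy saving. Light reaches gene expression through phytochromes and cryptochromes and, since photosynthesis makes sugar, also through the plant's own carbon supply. In a leaf that has been starved in darkness, sucrose and light therefore act on overlapping sets of genes, among them genes for protein synthesis and folding, cell walls and secondary metabolism. Methylation of lysine 36 of histone H3 lies over the bodies of transcribed genes.

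The 58 members had mean intensities of 102 to 9163 (median 268). Sucrose responses ran between 0.70 and 2.30 on the log2 scale (median 0.93), and 20 members were at 1 or above. Light responses ran between 1.00 and 3.71 (median 1.35). The light response was the larger of the pair in 54 members and the sucrose response in 4. These values chose the members and are a description, and the higher limit for light favours a larger light response. The members lie on all 5 chromosomes. AT1G72230 and AT1G72240 are direct neighbours, and AT4G38660 and AT4G38710 have 4 protein-coding genes between them. Only 8 members have a symbol other than their locus code in the annotation used, so most are given here by that code and without a role.

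**Figure D1:**
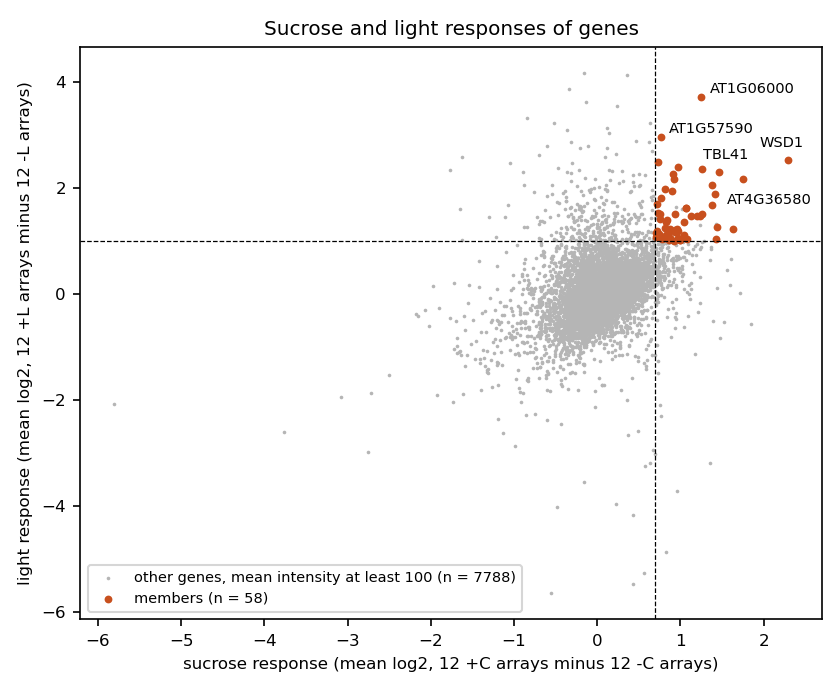
Each point is a gene with a mean intensity of at least 100, with the sucrose response (mean log2 of 12 +C arrays minus 12 -C arrays) on the horizontal axis and the light response (12 +L minus 12 -L arrays) on the vertical axis. The 58 members lie to the right of 0.7 and above 1 (dashed lines), with AT1G06000 at 3.71 on the light axis and *WSD1* at 2.30 on the sucrose axis, and grey points in the same corner are the 5 genes left out by name.

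The limits of the rule cut through a continuous spread of values. The sucrose responses nearest inside the limit of 0.7 were those of AT5G59240 (0.70), AT1G78070 (0.71) and AT2G30540 (0.71), and those nearest outside were AT3G20240 (0.70), AT1G34570 (0.70) and AT3G56370 (0.68). For light, AT3G02910 (1.00), AT5G55620 (1.01) and AT4G30800 (1.02) were nearest inside, and AT4G20760, AT5G20740 and AT5G15700 (0.99 each) nearest outside. For the mean intensity, AT3G16330 (102), AT1G72240 (106) and AT3G05390 (107) were nearest inside, and AT3G56260 (96.4), AT1G62350 (95.8) and AT5G20790 (85.1) nearest outside. AT3G56260 and AT5G20790 had light responses of 2.79 and 2.61, above those of most members.

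The deposited intensities have a trimmed mean of 500 on every array. Array medians were 180 to 223 in the 12 *sdg8-5* arrays and 187 to 222 in the 12 WT arrays, and log2 values of arrays of the same condition correlated at 0.9224 to 0.9469 over kept probe sets. Of the markers of green tissue, 6 of 8 were measured under a name, with medians of 2205 (*SBPASE*) to 13791 (*PSAE-1*). The flower markers *AMS* and *A9* were at medians of 16.9 and 12.6, and the root markers *EXPA7* and *PRX* at 56.8 and 30.6, while the root marker *PYK10* had a median of 6088. The control probe set for 25S ribosomal RNA ran between 498 and 15336 in *sdg8-5* arrays (median 6296) and between 371 and 8823 in WT arrays (median 892). It had a median of 503 in light against 6856 in darkness and of 1235 with sucrose against 5052 without, so it moved with each factor of the design. The probe annotation used lists no probe set under *SDG8*, so the genotypes were not checked by its transcript. The authors mapped the deletion with genomic DNA on ATH1 arrays, by a strongly reduced signal at this locus. Fewer cells that express a gene and less RNA per cell cannot be told apart in whole shoots.

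The combined treatment gave the highest level for nearly every member. Mean intensities of the members had a median of 450 in +C+L, 276 in -C+L, 225 in +C-L and 78.3 in -C-L in *sdg8-5*. In WT the medians were 374 in +C+L, 322 in -C+L, 180 in +C-L and 90.2 in -C-L. Relative to -C-L, the response to sucrose and light together was 3.44-fold to 31.3-fold over both genotypes (median 4.78-fold). The mean was highest in +C+L for 54 of 58 members in *sdg8-5* and for 55 in WT, and lowest in -C-L for 57 in each. These comparisons are parts of the contrasts that chose the members and were not tested.

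AT1G06000 had the largest combined response, 31.3-fold. In *sdg8-5* its intensity was 1311, 1279 and 1383 in +C+L, 621, 778 and 1022 in -C+L, 119, 226 and 214 in +C-L and 29.4, 42.9 and 59.3 in -C-L. In WT it was 1277, 1167 and 1474 in +C+L, 690, 659 and 562 in -C+L, 137, 66.1 and 86.2 in +C-L and 41.0, 36.3 and 49.1 in -C-L. In both genotypes no array of one treatment overlapped those of another. Over both genotypes the mean was 722 with light alone and 141 with sucrose alone.

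*WSD1*, a wax ester synthase of the cuticle, had the largest sucrose response of the members (2.30) and a combined response of 28.4-fold. Its intensity in *sdg8-5* was 255, 429 and 135 in +C+L, 27.3, 134 and 495 in -C+L, 41.9, 139 and 401 in +C-L and 31.0, 1.27 and 3.18 in -C-L. In WT it was 118, 72.9 and 118 in +C+L, 93.0, 59.5 and 79.0 in -C+L, 41.2, 84.9 and 36.3 in +C-L and 9.95, 3.37 and 6.75 in -C-L. Replicates in *sdg8-5* scattered widely, those in -C-L between 1.27 and 31.0, and all -C-L values of both genotypes were under 40, the limit of the filter on low values. *TBL41*, of a family of enzymes that acetylate cell wall polysaccharides, responded 13.7-fold. Its intensity in *sdg8-5* was 165, 163 and 247 in +C+L, 165, 125 and 120 in -C+L, 121, 105 and 40.9 in +C-L and 19.2, 7.77 and 3.31 in -C-L. In WT it was 221, 163 and 150 in +C+L, 178, 119 and 239 in -C+L, 120, 87.6 and 71.7 in +C-L and 9.40, 16.0 and 74.1 in -C-L. With light, adding sucrose left the *TBL41* values overlapping in each genotype.

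AT4G36580 responded 15.2-fold and differed between the genotypes (below). Its intensity in *sdg8-5* was 159, 219 and 281 in +C+L, 120, 212 and 209 in -C+L, 72.8, 279 and 290 in +C-L and 56.6, 23.4 and 14.9 in -C-L. In WT it was 227, 162 and 218 in +C+L, 84.3, 10.3 and 106 in -C+L, 74.0, 6.30 and 31.9 in +C-L and 5.27, 7.39 and 8.25 in -C-L. In *sdg8-5* the 3 treatments with sucrose or light overlapped, while in WT every +C+L array was above every array of the other treatments. AT1G57590 responded 13.2-fold, mainly to light. Its intensity in *sdg8-5* was 353, 292 and 360 in +C+L, 147, 167 and 182 in -C+L, 74.0, 53.6 and 24.1 in +C-L and 43.9, 10.0 and 9.76 in -C-L. In WT it was 374, 363 and 327 in +C+L, 362, 179 and 187 in -C+L, 33.7, 93.0 and 20.0 in +C-L and 20.4, 56.7 and 63.4 in -C-L. In darkness, values with and without sucrose overlapped in both genotypes.

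AT5G48570, annotated as *FKBP65* or *ROF2*, an FKBP-type prolyl isomerase and co-chaperone, responded 12.2-fold. Its intensity in *sdg8-5* was 1170, 1005 and 780 in +C+L, 543, 531 and 1029 in -C+L, 274, 498 and 358 in +C-L and 53.2, 77.1 and 145 in -C-L. In WT it was 1584, 1183 and 1672 in +C+L, 889, 935 and 664 in -C+L, 425, 194 and 420 in +C-L and 67.2, 115 and 188 in -C-L. All arrays with light were above all arrays without, in both genotypes. AT3G09440 was the brightest member, with a mean of 9163. Its intensity in *sdg8-5* was 16150, 14930 and 12840 in +C+L, 11710, 8974 and 11980 in -C+L, 6298, 7449 and 5923 in +C-L and 2361, 2394 and 1608 in -C-L. In WT it was 14540, 19280 and 16510 in +C+L, 10710, 18670 and 14090 in -C+L, 5572, 6132 and 4854 in +C-L and 2519, 1992 and 2418 in -C-L. Light alone and sucrose with light overlapped in WT, and the other treatments did not overlap in either genotype.

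**Figure D2:**
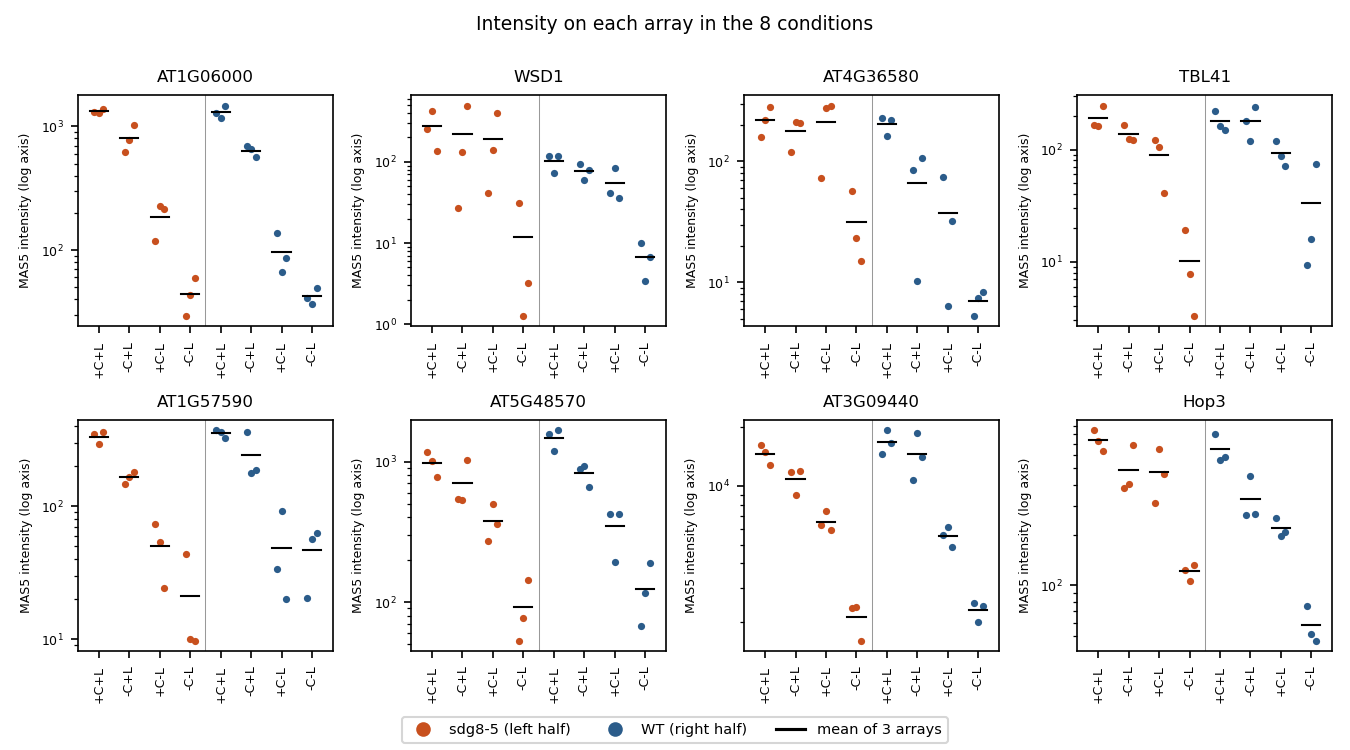
Intensity on each array (points, log axis) of the 6 members with the largest combined response, of the brightest member AT3G09440 and of *Hop3*, with the mean of 3 arrays as a line. In each panel *sdg8-5* is left and WT right, each in the order +C+L, -C+L, +C-L, -C-L. The -C-L points are the lowest in each genotype for AT3G09440 (1608 to 2394 in *sdg8-5* and 1992 to 2519 in WT) and scatter most for the dim genes *WSD1* and *TBL41*.

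The sources used here annotate 5 members as chaperones or co-chaperones. Most members have no annotated role in these sources, so the count is not complete and has no share over all genes beside it. Besides AT5G48570 the 5 are *Hop3* (log2 sucrose response 1.38, log2 light response 1.67), which links the chaperones Hsp70 and Hsp90. *Cpn60beta2* (0.92 and 2.17 on the log2 scale) is a subunit of the chaperonin that folds proteins in chloroplasts, and *Hsp70-2* (0.75 and 1.51) encodes a chaperone that binds unfolded proteins. AT2G20560 (0.97 and 1.19) is a heat shock protein of the DnaJ family, the co-chaperones that pass clients to Hsp70. *Cpn60beta2* was at 4517, 3609 and 4846 in +C+L and 622, 560 and 420 in -C-L in *sdg8-5*, and at 4233, 4757 and 6047 in +C+L and 458, 573 and 642 in -C-L in WT. *Hsp70-2* was at 3465, 3797 and 3778 in +C+L and 743, 802 and 887 in -C-L in *sdg8-5*, and at 4330, 3883 and 4005 in +C+L and 650, 847 and 946 in -C-L in WT. For both genes every +C+L array was above every -C-L array.

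Of 12 genes with a chaperone or co-chaperone symbol and a mean of at least 100, 4 are members, and 10 had a sucrose response above 0 and 10 a light response above 0 (medians 0.63 and 1.00). This list was gathered after the members were seen, by name families most of which hold a member. Its counts and medians include the 4 members, which the rule chose for high responses, and have no share over all genes beside them. They do not show a response of chaperones as a group. Of the relatives of members, *Hop1* and *Hop2* had sucrose responses of 0.19 and 0.60 and light responses of 0.32 and 0.43. *Cpn60beta3* and *Cpn60beta4* had sucrose responses of 1.07 and 0.19 and light responses of 0.78 and 1.21. *Fes1A*, of a family of exchange factors for Hsp70, was at 0.66 for sucrose and 1.57 for light, while *Fes1B* and *Fes1C* of that family had values below 0, with sucrose responses of -0.88 and -0.68 and light responses of -0.52 and -1.21.

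*MYC4* encodes a transcription factor of jasmonate signalling (log2 sucrose response 0.83, log2 light response 1.11). *AOP1* (0.73 and 1.11 on the log2 scale) is of the dioxygenase family that includes enzymes of glucosinolate modification. *UBP21* (1.12 and 1.46) is a protease that removes ubiquitin, and AT4G33040 (0.76 and 1.06) is of the thioredoxin superfamily. None of the 58 members is in any of 7 pathway lists (nitrate assimilation with the oxidative pentose phosphate pathway, flavonoid synthesis, light signalling, starch and sucrose synthesis, ribosome biogenesis, fatty acid synthesis and plastid isoprenoid synthesis). Only 1 to 6 genes of each list were measured under a name, and most members have no annotated role. Absence from a list therefore does not show that a member has no part in that pathway. The absence is in part set by the rule, which left out *HYH*, AT3G52740 and AT3G44450 of the light signalling list and *APL3* of the starch list by name. Of these, *HYH* (log2 sucrose response 0.90, log2 light response 3.09) and *APL3* (1.43 and 1.32) met all limits. At an FDR of 0.05 in limma, 12.3% of the 12432 genes tested were higher and 8.19% lower with sucrose, and 17.3% were higher and 16.4% lower with light. Among the 6 genes of ribosome biogenesis, 5 were higher with sucrose and 3 with light, and none was lower. Of 5 genes of starch and sucrose synthesis, 2 were higher with sucrose and 4 with light. Of 3 genes of light signalling, 2 were higher with sucrose and 3 with light. Of 5 genes of nitrate assimilation and the pentose phosphate pathway, 2 were higher and 2 lower with sucrose, and 4 were lower with light. Of 4 genes of fatty acid synthesis, 2 were higher with sucrose and 1 was lower with light. The single measured genes of flavonoid and of isoprenoid synthesis passed in neither contrast.

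**Figure D3:**
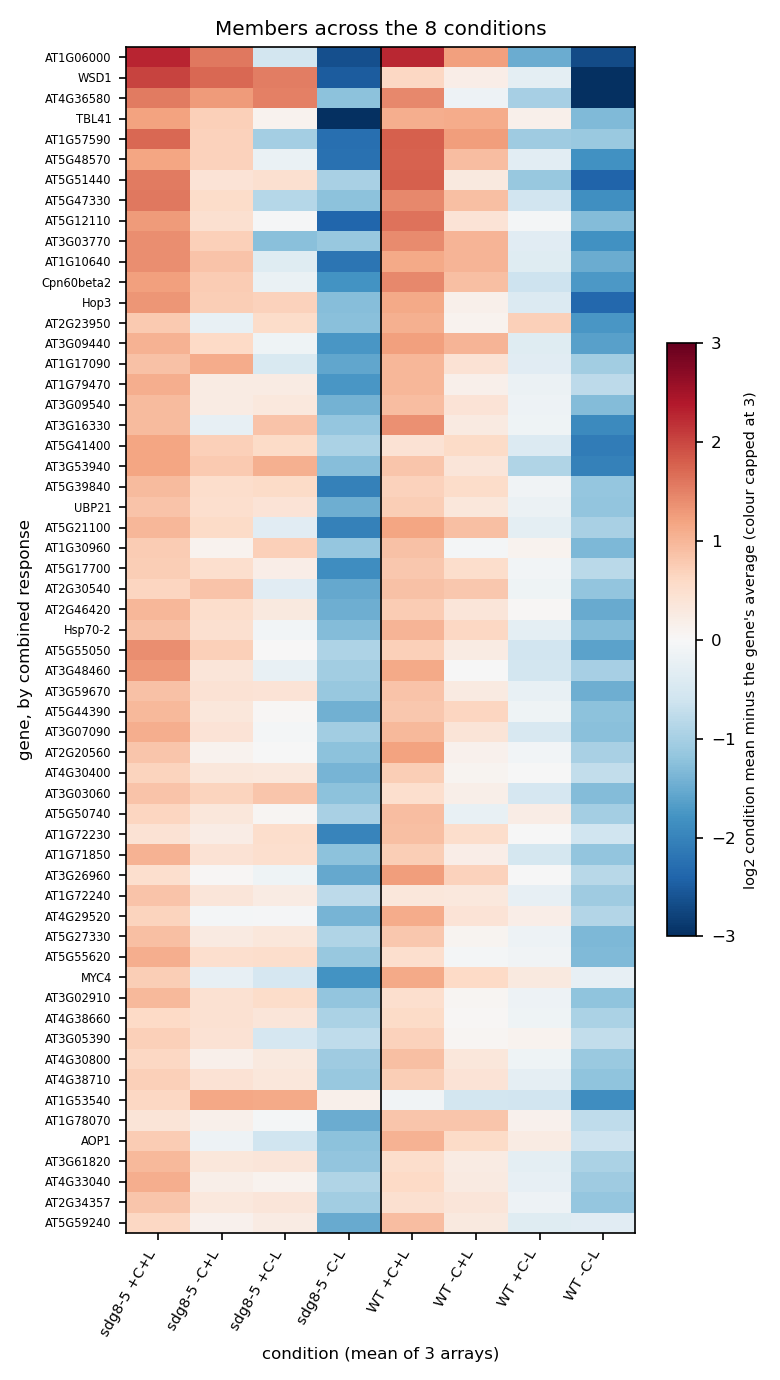
Each row is a member, in order of combined response, and each column a condition, with *sdg8-5* left and WT right, and colour is the log2 of the condition mean minus the average of that gene over the 8 conditions, capped at 3. The +C+L columns are highest for 54 members in *sdg8-5* and 55 in WT, and the -C-L columns lowest for 57 in each.

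Light alone gave more than sucrose alone for most members in both genotypes. In *sdg8-5* the -C+L level was above the +C-L level for 40 members and below it for 18, on mean log2 values. In WT it was above for 54 and below for 4. The order +C+L, -C+L, +C-L, -C-L held for the means of 34 members in *sdg8-5* and 50 in WT. Every +C+L array was above every -C+L array for 26 members in *sdg8-5* (8.7% of all 12432 genes tested) and 33 in WT (9.45% of all genes). Every +C+L array was above every +C-L array for 35 members in *sdg8-5* (11.6% of all genes) and 51 in WT (13.1%), and above every -C-L array for 56 members in *sdg8-5* and 58 in WT (20.5% of all genes in each genotype). The rule used these contrasts, so the shares are a description.

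The difference between the genotypes in the balance of light and sucrose was tested for each gene, as the light alone minus sucrose alone difference in *sdg8-5* minus that in WT. This contrast was added after the members had been seen. It was below 0 for 48 of 58 members (median -0.46, against 0.04 over all genes, where 46% were below 0). Among 204 other genes with a sucrose response of at least 0.7, the median was -0.27. No member passed an FDR of 0.15 in limma (0.129% of the 12432 genes were higher and 0.00804% lower), none did in a plain ANOVA, and 7 members had an unadjusted p under 0.05, all in the lower direction. The genotypes' balance was therefore not shown to differ for any single member.

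The genotypes differed in average level for 13 of the 58 members. Over the 4 treatments, 8 were higher in *sdg8-5* at an FDR of 0.05 (13.8% of members, against 8.49% of all 12432 genes) and 5 were lower (8.62% of members, against 10.1% of all genes). Among the 7846 genes with a mean of at least 100, from which the members come, 12.1% were higher and 13.8% lower. The median difference of the members was 0.07 on the log2 scale, against 0.01 over all genes. The members as a set thus lay near the background of a genotype effect that reached a large share of the array.

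The clearest differences were those of *MYC4* and *AOP1*, both lower in *sdg8-5*. *MYC4* in *sdg8-5* was at 495, 478 and 496 in +C+L, 186, 280 and 269 in -C+L, 185, 274 and 163 in +C-L and 95.0, 80.8 and 78.9 in -C-L. In WT it was at 782, 597 and 536 in +C+L, 435, 380 and 515 in -C+L, 383, 304 and 386 in +C-L and 266, 236 and 238 in -C-L. Every *sdg8-5* array was below every WT array of the same treatment, and the difference was -0.90 ± 0.10 (log2, standard error; FDR = 4.07e-06, limma). The *sdg8-5* values in light alone lay in the same range as the WT values in darkness without sucrose.

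*AOP1* in *sdg8-5* was at 534, 431 and 438 in +C+L, 212, 268 and 262 in -C+L, 172, 163 and 212 in +C-L and 127, 120 and 104 in -C-L. In WT it was at 570, 558 and 584 in +C+L, 416, 396 and 412 in -C+L, 285, 370 and 332 in +C-L and 165, 190 and 182 in -C-L. Here too no arrays overlapped between genotypes within a treatment, and the difference was -0.62 ± 0.07 (log2, standard error; FDR = 3.91e-06, limma). *MYC4* and *AOP1* were the only members below WT without overlap in all 4 treatments (2.35% of all genes), and no member was above WT in that way (0.861% of all genes). In at least 2 treatments, 7 members were above WT without overlap (8.03% of all genes) and 5 below (9.56% of all genes). Both calls held in each fit that left out 1 array and each that left out a replicate number.

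The other 3 members that were lower in *sdg8-5* had smaller differences. AT3G26960 differed by -0.56 ± 0.15 (FDR = 0.0131), with a median of 144 over the 12 *sdg8-5* arrays (41.0 to 252) and of 170 over the 12 WT arrays (56.6 to 430). AT5G21100 differed by -0.41 ± 0.10 (FDR = 0.00709), with a median of 286 (63.5 to 607) in *sdg8-5* and 336 (107 to 734) in WT. AT5G12110 differed by -0.36 ± 0.11 (FDR = 0.0265), with a median of 571 (85.8 to 1463) in *sdg8-5* and 583 (195 to 1669) in WT. The 12 arrays of each genotype hold all treatments, so their ranges overlap widely. AT5G12110 lost its call in limma without *sdg8-5* -C-L replicate 2 or without *sdg8-5* -C+L replicate 2 (highest FDR = 0.0510). In the 3 fits that left out a replicate number, AT5G21100 kept its call in 0. AT3G26960 and AT5G12110 each kept theirs in 1.

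Of the 8 members that were higher in *sdg8-5*, *Hop3* had the lowest p. In *sdg8-5* it was at 845, 727 and 638 in +C+L, 382, 401 and 692 in -C+L, 312, 654 and 463 in +C-L and 124, 107 and 133 in -C-L. In WT it was at 806, 563 and 583 in +C+L, 265, 448 and 268 in -C+L, 253, 198 and 209 in +C-L and 75.1, 51.1 and 46.9 in -C-L. The genotypes did not overlap without light, and overlapped in light, and the difference over the treatments was 0.73 ± 0.14 (FDR = 0.00128, limma).

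AT5G51440 in *sdg8-5* was at 2517, 2058 and 2213 in +C+L, 1005, 928 and 1125 in -C+L, 900, 1479 and 852 in +C-L and 231, 375 and 564 in -C-L. In WT it was at 2235, 3209 and 2507 in +C+L, 1101, 1082 and 632 in -C+L, 366, 294 and 395 in +C-L and 88.7, 139 and 208 in -C-L. The genotypes overlapped in light and did not overlap in darkness, where *sdg8-5* was higher. The average difference was 0.74 ± 0.16 (FDR = 0.00356, limma). AT4G36580 (values above) had the largest difference, 1.73 ± 0.42 (FDR = 0.00731). Its means were under 40 in WT +C-L and -C-L and in *sdg8-5* -C-L. In +C+L its arrays overlapped between the genotypes, with means of 220 in *sdg8-5* and 203 in WT. AT3G53940 differed by 0.88 ± 0.22 (FDR = 0.00925), with a median of 149 (21.4 to 254) in *sdg8-5* and 89.0 (15.4 to 188) in WT.

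The remaining 4 had differences under 0.6. AT5G55050 differed by 0.58 ± 0.14 (FDR = 0.00728), with a median of 442 (157 to 1224) in *sdg8-5* and 291 (88.9 to 636) in WT. AT5G55620 differed by 0.47 ± 0.11 (FDR = 0.00631), with a median of 1180 (313 to 2454) in *sdg8-5* and 742 (279 to 1381) in WT. AT3G02910 differed by 0.40 ± 0.10 (FDR = 0.0105), with a median of 3413 (990 to 5060) in *sdg8-5* and 2116 (940 to 3772) in WT. AT1G71850 differed by 0.38 ± 0.10 (FDR = 0.00904), with a median of 281 (67.1 to 491) in *sdg8-5* and 190 (80.8 to 386) in WT.

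The genotype calls depended on which arrays entered and on the RNA control. With the 25S ribosomal RNA signal as a covariate, 4 members were higher (AT3G07090, AT5G51440, *Hop3* and AT1G71850) and 2 lower (*MYC4* and *AOP1*). The standard errors of all 13 differences were larger in that fit. Of the 8 calls lost, 6 had an estimate larger in size than without the covariate, such as 2.21 ± 0.69 for AT4G36580 (FDR = 0.0694) and 0.42 ± 0.17 for AT3G02910 (FDR = 0.186). The other 2 had smaller estimates, -0.19 ± 0.15 for AT5G21100 (FDR = 0.542) and -0.22 ± 0.18 for AT5G12110 (FDR = 0.540). Within the 13 arrays with higher signal of the bioC control probe sets, 2 were higher and 3 lower, and within the 11 arrays with lower signal none passed. These fits have fewer arrays. All 13 estimates kept their sign in each log2 fit, and all 13 calls were kept with the bioC group as a block.

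**Figure D4:**
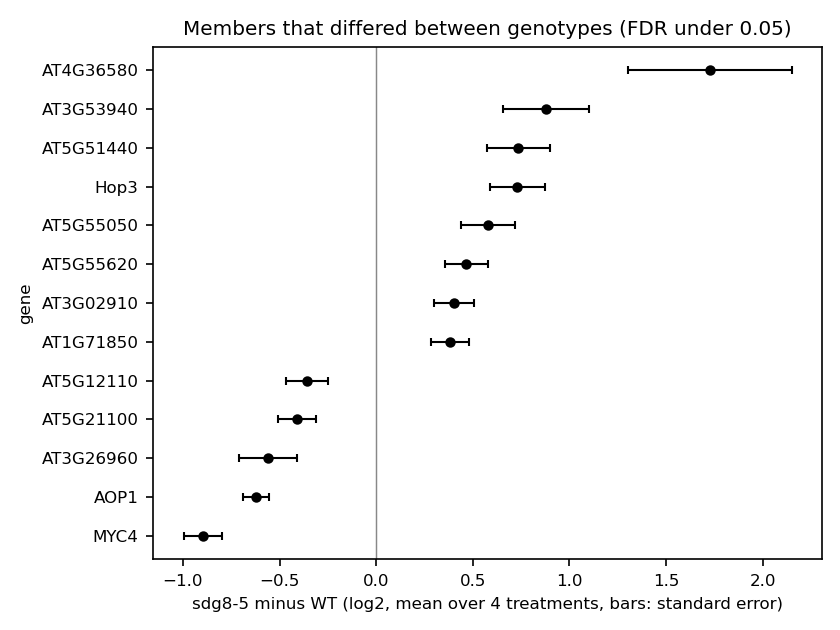
Difference between *sdg8-5* and WT (mean log2 over 4 treatments, horizontal axis) for the 13 members past an FDR of 0.05, with the standard error of the limma fit as bars. The 8 members above 0 reach 1.73 (AT4G36580) and the 5 below 0 reach -0.90 (*MYC4*).

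Among 314 other genes with a light response of at least 1, 5.41% were higher and 35.7% lower in *sdg8-5*, with a median of -0.18. Of the 204 other genes with a sucrose response of at least 0.7, 21.1% were higher and 14.2% lower, with a median of 0.10. The difference of these shares from those of the members (13.8% and 8.62%) was not tested.

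No member passed an FDR of 0.15 for a difference between genotypes in the sucrose or the light response. For genotype by carbon, no member and 0% of all genes passed in limma, none passed in a plain ANOVA, and 6 members had an unadjusted p under 0.05. The estimate was above 0 for 45 of 58 members, with a median of 0.25 against -0.01 over all genes. For the 3-way interaction no member passed in limma or a plain ANOVA, 5 had an unadjusted p under 0.05, and 50 of 58 estimates were below 0, with a median of -0.53 against 0.00 over all genes. Among the 204 other genes with a sucrose response of at least 0.7, the medians were 0.18 for genotype by carbon and -0.39 for the 3-way interaction. For genotype by light no member passed in limma (0.0161% of all genes were higher and 0% lower) or in a plain ANOVA, and 5 had an unadjusted p under 0.05.

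The lowest p for genotype by light was that of AT5G51440. Its light response was 1.11 with sucrose and 1.47 without in *sdg8-5*, against 2.91 with sucrose and 2.73 without in WT. The difference was -1.53 ± 0.33 (log2, standard error; FDR = 0.213, limma), short of 0.15. It was called with eBayes trend and robust estimation (FDR = 0.0361), with a filter of 100 on 3 arrays (FDR = 0.110) and with the bioC block (FDR = 0.146).

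On the log2 scale, the sucrose response of the members was smaller in light than in darkness. The median sucrose response was 0.53 in light and 1.64 in darkness in *sdg8-5*, and 0.52 in light and 1.12 in darkness in WT. In light, the sucrose response was at or below 0 for 3 members in *sdg8-5* and for 2 in WT. In darkness it was at or below 0 for 2 members in WT. The light response had a median of 0.67 with sucrose and 1.92 without in *sdg8-5*, and 1.04 with sucrose and 1.74 without in WT. The carbon by light interaction was below 0 for 56 of 58 members, with a median of -0.88 against -0.06 over all genes, of which 56.9% were below 0. With each array centred on its median, the median over all genes was 0.06 and that of the members -0.75.

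For 3 members the interaction passed an FDR of 0.05 (5.17% of members, against 0.169% of all genes in that direction), and no member was higher (0.0724% of all genes). Of the 204 other genes with a sucrose response of at least 0.7, 1.96% were lower, and of the 314 other genes with a light response of at least 1, 0.637% were. The rule used the same -C-L arrays, so the members' calls and share are not independent of the choice of members. A further 26 of the 29 members below 0 with an unadjusted p under 0.05 did not pass. AT2G46420 had the lowest p. In *sdg8-5* it was at 1601, 1857 and 1794 in +C+L, 1263, 1387 and 1185 in -C+L, 915, 1308 and 1043 in +C-L and 291, 249 and 413 in -C-L. In WT it was at 1697, 1241 and 1572 in +C+L, 1169, 1115 and 1147 in -C+L, 940, 722 and 1038 in +C-L and 214, 355 and 356 in -C-L. Values without sucrose and light stood apart as the lowest in each genotype, and the sucrose response was 0.45 in light against 1.79 in darkness in *sdg8-5* and 0.38 against 1.57 in WT. The interaction was -1.26 ± 0.21 (FDR = 0.0154, limma).

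AT3G09440, whose values are given above, had a sucrose response of 0.43 in light against 1.64 in darkness in *sdg8-5*, and of 0.24 in light against 1.26 in darkness in WT. Its interaction was -1.12 ± 0.20 (FDR = 0.0245, limma). AT4G38710 in *sdg8-5* was at 975, 1039 and 1053 in +C+L, 808, 809 and 883 in -C+L, 627, 917 and 811 in +C-L and 277, 264 and 312 in -C-L. In WT it was at 1213, 815 and 1062 in +C+L, 664, 839 and 962 in -C+L, 540, 443 and 554 in +C-L and 271, 267 and 270 in -C-L. Any one treatment brought AT4G38710 above every -C-L array in its genotype, and its interaction was -0.88 ± 0.17 (FDR = 0.0307, limma). This call was lost in 13 of the 24 fits that left out 1 array, with quantile normalization and with median centring. That of AT3G09440 was lost without *sdg8-5* +C-L replicate 2 or WT +C-L replicate 2, and that of AT2G46420 was kept in all 24.

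**Figure D5:**
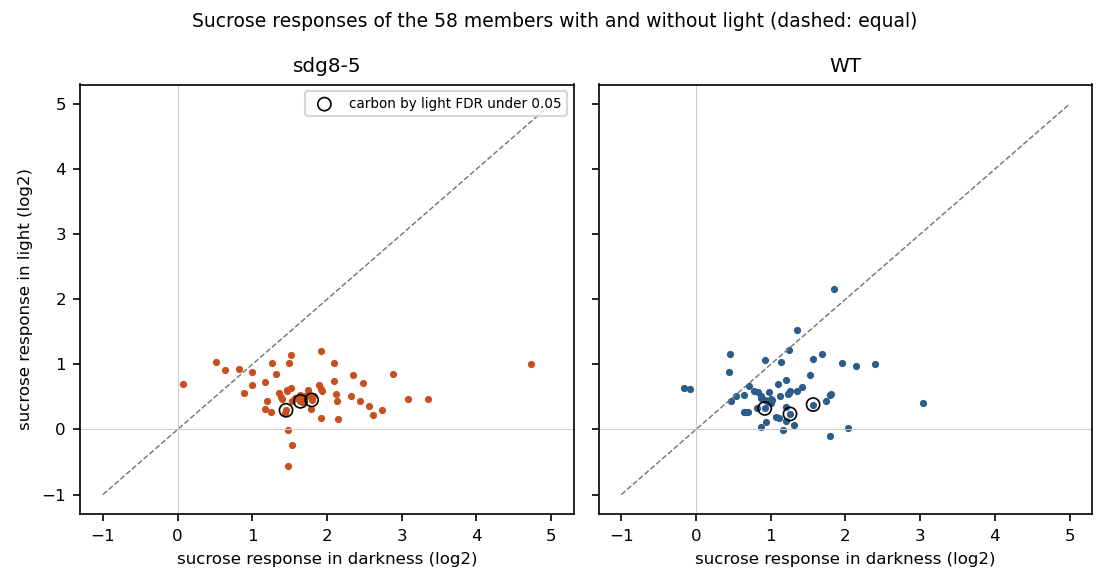
Sucrose response of each member in light (vertical axis, log2) against that in darkness (horizontal axis, log2), in *sdg8-5* (left) and WT (right), with equality as a dashed line and the 3 members past an FDR of 0.05 circled. Most points lie below the line: medians are 0.53 in light and 1.64 in darkness in *sdg8-5*, and 0.52 and 1.12 in WT.

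These interactions depend on the scale. On linear intensities, the sum of both single responses was exceeded in +C+L by 26 members and not reached by 32 (median difference -18.3 intensity units), and a plain ANOVA called 0 members lower and 3 higher (AT5G51440, AT3G48460 and AT1G06000). For AT5G51440 the mean was 2457 in +C+L, 979 in -C+L, 714 in +C-L and 268 in -C-L, which is 1031 above the sum. For AT1G06000 the excess was 495 and for AT3G48460 it was 305. AT3G09440 was 804 below its sum, and the 3 members called lower on the log2 scale were below 0 on both scales. None of the 3 was called without any 1 replicate number (8 of the 24 arrays), or within either bioC group. Without *sdg8-5* +C-L replicate 1 the count was 7, and without *sdg8-5* +C-L replicate 2 it was 1.

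The spread of replicates bears on the members' interactions as a set. Median standard deviations of log2 values over members were 0.24 in +C+L, 0.29 in -C+L, 0.37 in +C-L and 0.59 in -C-L in *sdg8-5*, and 0.25, 0.27, 0.34 and 0.42 in the same order in WT. A -C-L value that is low by chance raises both responses that the rule used and lowers the interaction. The medians of the interactions are therefore a description and not independent of the choice of members. The same holds for the calls and the share of members called for carbon by light. Condition means under 40 occurred in 13 members, 11 of them in *sdg8-5* -C-L. For the 20 members whose condition means were all at least 100, the carbon by light interaction had a median of -0.65 and was below 0 in 19. For these 20 the genotype by carbon median was 0.19 and the 3-way median -0.33. For the other 38 members the carbon by light median was -1.10. Among the 204 other genes with a sucrose response of at least 0.7 it was -0.51, and among the 314 other genes with a light response of at least 1 it was -0.22.

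The members also differed in how steady they were. The pooled standard deviation within conditions ran between 0.14 (AT3G07090) and 1.43 (AT1G53540) on the log2 scale, with a median of 0.49, and was at 1 or above in 4 members. AT3G07090 was at 4078, 3844 and 4558 in +C+L, 2708, 2114 and 3021 in -C+L, 1653, 2055 and 1998 in +C-L and 1030, 991 and 839 in -C-L in *sdg8-5*. In WT it was at 3788, 3809 and 3991 in +C+L, 2772, 2465 and 2448 in -C+L, 1450, 1350 and 1417 in +C-L and 845, 761 and 871 in -C-L. The treatments stood in 4 separate steps in each genotype, with no overlap between them. AT1G53540 was at 228, 187 and 332 in +C+L, 425, 300 and 363 in -C+L, 205, 789 and 69.7 in +C-L and 9.52, 138 and 393 in -C-L in *sdg8-5*. In WT it was at 126, 80.2 and 247 in +C+L, 167, 130 and 36.6 in -C+L, 142, 87.5 and 97.6 in +C-L and 7.53, 49.0 and 76.8 in -C-L. All treatments of AT1G53540 overlapped in *sdg8-5*, and its average sucrose response was 0.82 ± 0.55 (log2, standard error). These 2 genes were chosen after their values were seen.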

How the data were processed

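RNA was labeled with a one-cycle cDNA kit and hybridized to ATH1 arrays. The authors computed MAS5 values in R, and deposited intensities, not log-transformed, of 22810 probe sets, with a trimmed mean (2% cut from each side) of 500 on each of the 24 arrays. No further normalization was applied. The filter on low values asked for 40 or more on any array, which 21552 probe sets met and 1258 did not. Their log2 values were fitted in limma 3.58.1 (R 4.3.3) with 1 coefficient for every one of the 8 conditions (residual degrees of freedom 16, prior 1.813), and p-values were adjusted over all 21552 by the Benjamini-Hochberg method. The FDR limit was 0.05 for genotype and carbon by light and 0.15 for interactions with genotype. Figures were drawn with matplotlib 3.10.9 in Python 3.11.15.

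The probe annotation lists 1 gene for 13513 probe sets, several for 503 and none for 8794. Genes with several probe sets were represented by the brightest on the log2 scale, which gave 12432 genes in the fit, all 58 members among them. Shares and medians over all genes refer to these 12432 annotated genes. Names came from RefSeq's TAIR10.1 annotation. The genome build of the arrays is not given in the sources used here, and no sequences or promoters were analysed here.

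The members, the pathway lists and the alternatives were chosen with earlier results of these data known. Array values are given for the 6 members with the largest combined response, the brightest member, members past a limit (up to 8 per contrast and direction, some by median and range), and as levels for genes next to the limits of the rule. Others, chosen after their values were seen, are *Cpn60beta2*, *Hsp70-2*, AT3G07090 and AT1G53540. Alternatives were other filters, log2 of the value plus 16, quantile normalization, median centring, plain ANOVA, trend and robust estimation, a replicate block, blocks and subsets by bioC signal, a 25S covariate and leaving out arrays. The fit was tested on simulated data. The number of arrays limits the precision.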

Additional observations from a re-analysis of the deposited data

Results flagged for a closer look

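The sucrose response differed between light and darkness for 3 members by the test of that difference in limma: AT2G46420 by -1.26, AT3G09440 by -1.12 and AT4G38710 by -0.88 on the log2 scale, each smaller in light. In both genotypes the response in light was below that in darkness for all 3. The rule that chose the members used the same arrays, so these calls are not independent of that choice. The call of AT4G38710 was lost in 13 of 24 fits without 1 array and with quantile normalization and median centring, and that of AT3G09440 in 2 of 24. On linear intensities a plain ANOVA on linear intensities called none of the 3, with values below 0 for each.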

How the results depend on the processing

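The 13 genotype estimates and the 3 carbon by light estimates kept their direction in all log2 fits and on linear intensities. The count of members higher in *sdg8-5* was 2 and 0 within the higher and lower bioC groups, 1 and 0 within the 12 arrays of higher and of lower bioC signal, and 4 with the 25S covariate. The count of members lower was 3 and 0 within the bioC groups, 0 and 1 within the 12 arrays, and 2 with the 25S covariate. These subsets hold fewer arrays. Leaving out a replicate number gave 1 to 9 higher and 2 to 4 lower, and leaving out 1 array gave 8 to 13 higher (13 without *sdg8-5* +C-L replicate 1) and 4 to 7 lower. For carbon by light, 7 were lower with trend and robust estimation, 2 with quantile normalization and with median centring, and 0 within each bioC subset; linear intensities gave 0 lower and 3 higher. Leaving out a replicate number gave 0, and leaving out 1 array gave 1 to 7. For genotype by light, 1 member was lower with the filter of 100 on 3 arrays, with trend and robust estimation and with the bioC block, and 0 to 1 without 1 array (1 without *sdg8-5* -C-L replicate 1, *sdg8-5* +C-L replicate 1 or WT -C-L replicate 3). The median sucrose response of the members was 0.82 with log2 of the value plus 16, 0.89 with quantile normalization and 0.84 with median centring, and 0.93 to 0.96 without a replicate number, and the median light response 1.16 with log2 of the value plus 16 and 1.25 with median centring. The other counts were equal or close to those of the main fit in all settings. The cause of these changes was not tested. The block by replicate number gave 9 higher and 6 lower by genotype and 3 lower for carbon by light. Deviations of arrays with the same number correlated at -0.11 to 0.13 (median 0.03), and those of arrays with other numbers at -0.14 to 0.11 (median -0.01). Of the 24 arrays, 16 were closest to their own number. These values do not settle whether arrays of the same number belong together, and the main fit did not use the numbers. The rule gave 58 members with the probe set of highest mean intensity and 59 with the limits applied before the choice of probe set, and the 58 were in both. The promoter motif shares were not run, since no promoter sequence was used here. Signals under 40 in -C-L limit the fold changes of 13 members.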
